A study of Mus musculus with 4 samples.

Results

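The 33 genes of cholesterol biosynthesis and the sterol response were followed in *Eya1*-lineage cells of the embryonic mouse kidney, as members of a list fixed by gene symbol. All 33 symbols were found, each with 1 Ensembl identifier, among the 52636 genes counted. RNA was sequenced from tdTomato+ cells sorted by FACS about 48 h after the first tamoxifen dose, 5000 cells per library, in 2 Control and 2 *Eya1*cKO libraries. Control embryos carried the *Eya1*CreER knock-in allele and the R26-tdTomato reporter. *Eya1*cKO embryos carried the same alleles together with *Eya1* fl/fl, and both genotypes received tamoxifen. Mice were on a mixed C57BL/6J and 129/Sv background and kidneys were taken at about E12.75. CreER is driven from the *Eya1* locus, so Control cells also have a modified *Eya1* allele, and only cells in which CreER acted, with their descendants, are marked. Per the labels, 6 kidneys of each genotype came from 4 pregnant females, while the study's methods count kidneys and females differently. Cell suspensions were combined before sorting, so the libraries of a genotype are separate portions of pooled cells, and P-values measure the spread between such portions.

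Cholesterol is made from acetyl-CoA through mevalonate, the isoprenoid farnesyl diphosphate, squalene and lanosterol. When sterols in the endoplasmic reticulum are low, Scap carries the SREBP transcription factors to the Golgi, where they are cleaved and released to the nucleus to raise transcription of synthesis genes. When sterols are high, the Insig proteins retain Scap, while oxysterols activate the liver X receptors, which raise the efflux transporters. Cholesterol is a membrane component of all dividing cells and the substrate of steroid hormone synthesis in the adrenal cortex, a neighbour of the embryonic kidney.

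Of the 33 genes, 3 fell in *Eya1*cKO and none rose. *Fasn*, the fatty acid synthase, fell to 61.3% of its Control level, *Scd2*, the main stearoyl-CoA desaturase here, to 79.3%, and *Acat2*, the cytosolic acetoacetyl-CoA thiolase that starts the mevalonate pathway, to 43.3%. In that order, the calls were kept under 9, 7 and 5 of 9 alternatives run on all 4 libraries. *Acat2* missed the threshold once reads of its close copy *Acat3* were added. None of the other 18 synthesis enzymes listed passed in edgeR, nor did either *Srebf* gene, *Scap* or either *Insig* gene. DESeq2's Wald test called 4 members lower, the same 3 and *Fdps*. The share of members called was 9.09%, and edgeR's quasi-likelihood test called 9.56% of the 19041 genes tested at an adjusted *P* of 0.05. Among genes with a mean of at least 10 CPM, which 30 members were, 3 of those 30 members and 15.4% of all genes were called. For falls alone the share was 9.09% of members against 4.41% of all genes, and for rises 5.15% of all genes were called. These shares by direction include genes under 10 CPM and were not taken at matched level. Beside the count of 0 rises, 2 members with a positive log2 fold change had an unadjusted *P* under 0.05, and DESeq2's Wald test also called 0. In either direction, 21.2% of members had an unadjusted edgeR *P* under 0.05, against 28.8% of all genes tested. The median log2 fold change of the members was -0.13, against 0.016 over all genes tested, with 17 members negative and 16 positive. The order of these medians was not stable: without *Eya1*cKO 1 they were 0.01 for the members and -0.16 for all genes, and without the low-count filter -0.14 and -0.21. All 33 passed the filter on low counts. The calls rest on the spread of few libraries: without either Control library no member was called, without *Eya1*cKO 1 there were 6 lower and 7 higher, and without *Eya1*cKO 2 there were 9 lower and 3 higher. In bulk RNA, fewer cells of a type and less RNA per cell cannot be told apart.

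**Figure D1:**
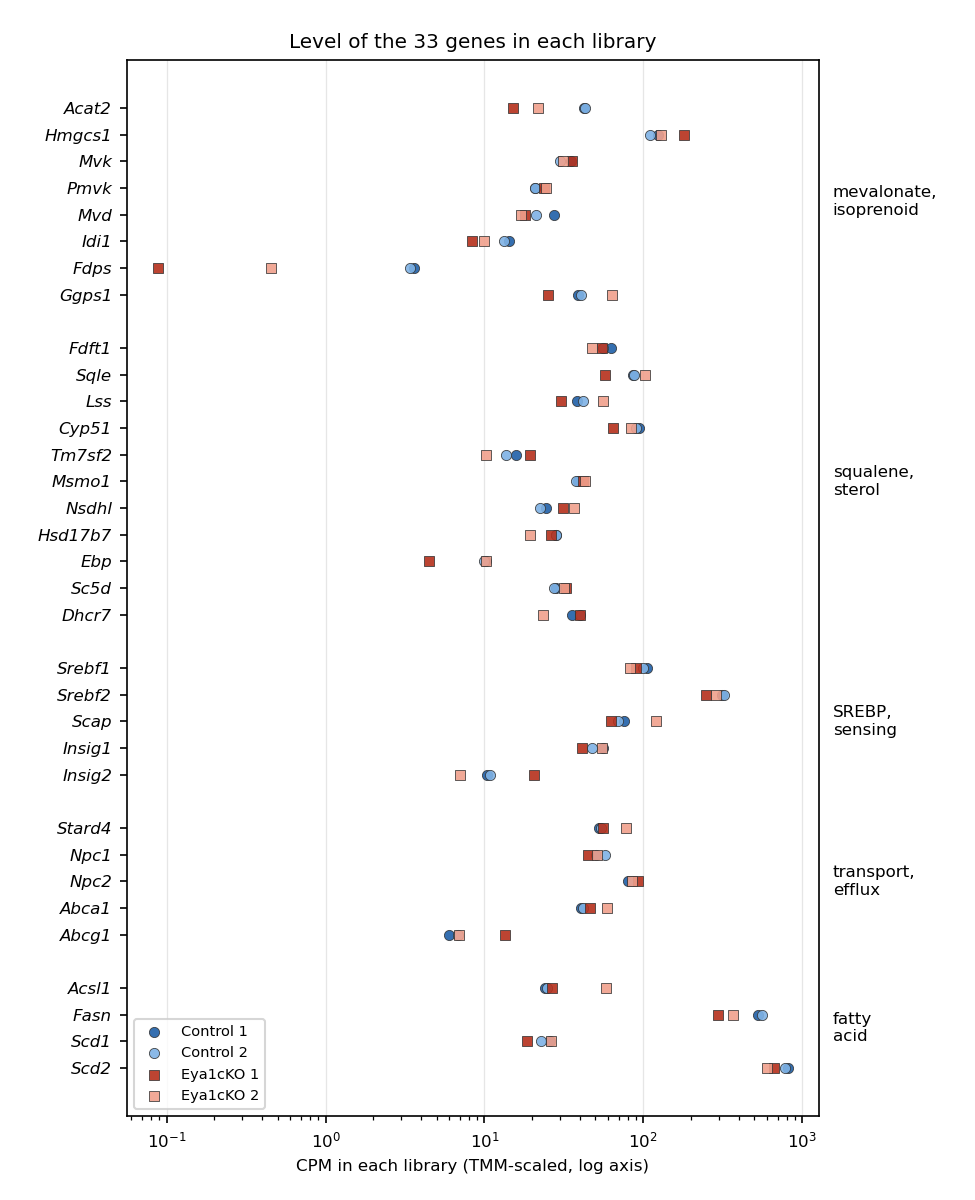
Level of each of the 33 genes in each of the 4 libraries, in CPM (reads over TMM-scaled library totals, log axis); each point is 1 library, circles for Control and squares for *Eya1*cKO. The Control circles nearly coincide for most genes, while the *Eya1*cKO squares of *Ggps1*, *Ebp*, *Insig2* and *Acsl1* lie apart from each other, and *Fasn* and *Acat2* have both squares below both circles.

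Reads counted on genes ranged from 35411905 to 37999342 in the Control and from 17457452 to 22239293 in the *Eya1*cKO libraries, and 3 reads correspond to at most 0.171 CPM. This limit covers counting error only. Reads on no gene were 12.9% to 13.9% of all reads recorded in Control and 20.9% to 22.7% in *Eya1*cKO. Unaligned reads were 6.32% and 6.69% in Control against 12.9% and 12.7% in *Eya1*cKO, and genes with a read numbered 26486 and 27091 against 21455 and 20538. The part of these differences in the results was not tested. *Eya1*, the targeted gene, was at 189 and 171 CPM in the Control and 16.7 and 12.5 in the *Eya1*cKO libraries, low in both libraries labelled as mutant. The log2 ratio of *Eya1*cKO to Control was -3.60 (SE, the standard error, 0.18, edgeR adjusted *P* = 1.9e-04). All 10 nephron progenitor markers listed were present in both Control libraries and fell. Their summed level went from 2191 and 2201 CPM in Control to 438 and 404 in *Eya1*cKO. *Eya1* itself is among these 10 and in the sums, and its fall was set by the genotype. Markers of other cell types moved as well. The 10 adrenal cortex markers summed to 37.0 and 28.4 CPM in Control and to 805 and 762 in *Eya1*cKO, and all 10 rose. Of the 10 sympathoadrenal markers 9 rose, with sums of 36.7 and 43.0 against 595 and 611 CPM. Podocyte markers rose in 7 of 8, renal stroma markers in 6 of 8 and endothelial markers in 8 of 8, with sums from 888 to 908, 2454 to 2472 and 618 to 629 CPM in Control and from 2806 to 2869, 5239 to 5645 and 1068 to 1127 in *Eya1*cKO. Proliferation markers fell in 8 of 10, with sums of 3116 to 3196 against 2104 to 2156 CPM. Ureteric bud markers fell in 2 of 9, with sums of 397 to 409 against 286 to 304 CPM. Of the 10 macrophage markers none passed the threshold in edgeR, with 1 in each direction at an unadjusted *P* under 0.05 and 0 by DESeq2, and their sums were 201 to 205 against 211 to 216 CPM. None of these lists had a gene at 3 or fewer reads in both libraries of a genotype. The part of these cell types in the results below was not tested.

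The bases just before the start site are shown for 5 members, because SREBP, NF-Y and Sp1 act together at sterol-regulated promoters. They are *Hmgcs1*, *Insig1* and *Srebf2* as textbook SREBP targets that were not called, and *Fasn* and *Acat2* as members that fell. Each is the 180 bases before the RefSeq start, on the strand of the gene, from GRCm38.p6. Capitals mark matches on either strand to the core of the sterol regulatory element (TCACNCCAC), the CCAAT box bound by NF-Y (CCAAT), the GC box bound by Sp1 (GGGCGG) and the E-box (CACGTG).
*Hmgcs1*, chr13:119690171-119690350, plus strand: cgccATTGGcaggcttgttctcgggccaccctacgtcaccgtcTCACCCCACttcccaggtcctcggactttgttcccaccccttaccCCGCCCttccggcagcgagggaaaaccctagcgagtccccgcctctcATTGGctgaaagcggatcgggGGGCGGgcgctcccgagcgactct
*Insig1*, chr5:28071232-28071411, plus strand: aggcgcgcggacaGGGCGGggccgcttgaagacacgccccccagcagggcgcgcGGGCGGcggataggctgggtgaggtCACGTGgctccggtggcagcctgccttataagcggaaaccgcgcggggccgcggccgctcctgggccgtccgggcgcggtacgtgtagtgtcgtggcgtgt
*Srebf2*, chr15:82147089-82147268, plus strand: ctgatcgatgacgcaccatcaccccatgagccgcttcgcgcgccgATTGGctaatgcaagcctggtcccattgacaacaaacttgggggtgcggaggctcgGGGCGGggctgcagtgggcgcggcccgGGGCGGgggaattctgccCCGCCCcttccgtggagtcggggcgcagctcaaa
*Fasn*, chr11:120824548-120824727, minus strand: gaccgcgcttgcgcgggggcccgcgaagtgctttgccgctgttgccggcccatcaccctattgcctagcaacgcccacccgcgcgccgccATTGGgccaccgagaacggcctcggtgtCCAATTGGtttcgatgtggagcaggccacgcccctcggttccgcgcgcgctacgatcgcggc
*Acat2*, chr17:12960726-12960905, minus strand: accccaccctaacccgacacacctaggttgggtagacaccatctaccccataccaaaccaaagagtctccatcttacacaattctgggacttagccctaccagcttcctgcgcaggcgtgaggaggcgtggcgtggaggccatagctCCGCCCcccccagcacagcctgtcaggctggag

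In these windows *Hmgcs1* held 1 match to the sterol regulatory element core, 2 to the CCAAT box and 2 to the GC box, and the core began at position -137 from the start. *Insig1* held 2 GC boxes and 1 E-box, and *Srebf2* held 1 CCAAT box and 3 GC boxes, and neither held the core. *Fasn* held 3 CCAAT matches, a pair of them overlapping, and none to the other motifs, and *Acat2* held a single GC box. RefSeq's own windows extend further, on both sides of the start. Over these whole windows, 25 of the 33 members had at least 1 window and 34 windows in all. *Fdps*, *Fdft1*, *Sqle*, *Stard4*, *Npc1*, *Abcg1*, *Scd1* and *Scd2* had none. The core was found in 5.88% of the members' windows, those of *Hmgcs1* and *Acsl1*, and in 1.24% of all 32851 windows. The CCAAT box was in 67.6% of the members' windows against 37.4% of all, the GC box in 76.5% against 35.7%, and the E-box in 20.6% against 7.15%. These are matches of letters, described without a test, and a window without a match says nothing of binding.

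The mevalonate and isoprenoid segment held 8 genes, of which 1 fell and 7 did not pass. *Acat2* (GRCm38 chromosome 17, 12942890 to 12960747) was covered by 1472 and 1606 Control reads and by 342 and 381 *Eya1*cKO reads. These were 42.2 and 42.9 CPM against 15.1 and 21.7 CPM. Both *Eya1*cKO libraries lay well below both Control libraries, with a log2 fold change of -1.24 (SE 0.24, edgeR adjusted *P* = 0.026). Of the 75-base windows of its transcripts, 33.9% also occur in those of *Acat3*, a close copy, or *Tcp1*. Reads without a unique alignment, 7.95% to 9.06% of all reads recorded, are listed apart from the gene counts. Reads of the shared windows could thus be left out or placed on the wrong copy. Reads of *Acat3* numbered 36 and 40 in the Control pair, then 9 and 141 in the *Eya1*cKO pair. With the reads of both genes summed, an alternative chosen after seeing the data, the levels were 43.2 and 44.0 CPM in Control and 15.5 and 29.8 in *Eya1*cKO. The log2 fold change was then -1.0 and missed the threshold (edgeR adjusted *P* = 0.077). Over the alternatives run on all 4 libraries, the adjusted *P* of *Acat2* lay between 0.0027 and 0.093, and 5 of 9 kept the call.

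*Hmgcs1*, which condenses acetoacetyl-CoA to HMG-CoA and is a classical SREBP-2 target, was the most abundant gene of this segment. It was at 123 and 111 CPM in Control and 181 and 129 in *Eya1*cKO. The *Eya1*cKO libraries were both above the Control libraries but differed from each other by 1.40-fold. The log2 fold change of 0.42 (95% interval 0.04 to 0.81) did not pass after adjustment (edgeR adjusted *P* = 0.14). A gene on the opposite strand covers 12.1% of its exons. *Mvk* and *Pmvk*, the kinases that phosphorylate mevalonate in turn, had log2 fold changes of 0.05 and 0.20. *Mvk* was at 35.1 and 29.9 CPM in Control and 35.4 and 31.3 in *Eya1*cKO, so its groups overlapped. The interval of its log2 fold change, -0.45 to 0.55, lay within a change of 1.5-fold either way. *Mvd*, the decarboxylase that makes isopentenyl diphosphate, was at 27.6 and 21.1 CPM against 18.1 and 16.9. *Idi1*, the isomerase, was at 14.3 and 13.2 CPM against 8.32 and 9.98. Both had *Eya1*cKO below Control without passing, with log2 fold changes of -0.47 and -0.61 and intervals of -1.15 to 0.21 and -1.47 to 0.26. *Ggps1*, which makes geranylgeranyl diphosphate for protein prenylation, had Control levels of 39.1 and 40.6 CPM. *Eya1*cKO 2 was above them at 63.2 CPM and *Eya1*cKO 1 below them at 25 CPM.

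*Fdps*, the farnesyl diphosphate synthase at the branch between sterols and other isoprenoids, was the lowest of the 33 genes. Its reads numbered 126 and 128 in the Control pair but 2 and 8 in the *Eya1*cKO pair, or 3.61 and 3.42 against 0.0885 and 0.456 CPM. Relative to both Control libraries pooled, this was 2.52% in *Eya1*cKO 1 (95% exact interval 0.304% to 9.20%) and, by the same interval, 5.55% to 26.0% in *Eya1*cKO 2, intervals that cover counting error only. Its log2 fold change of -3.79 (SE 1.05) did not pass in edgeR (adjusted *P* = 0.061), and it passed with DESeq2's Wald test (adjusted *P* = 0.034). Of the 8 alternatives on all 4 libraries that could be computed, DESeq2's was the 1 that passed, and the adjusted *P* was 0.14 with edgeR's legacy method and 0.11 with the replicate number as a block. It passed without *Eya1*cKO 1 or *Eya1*cKO 2 and missed without Control 1 or Control 2 (edgeR adjusted *P* = 0.63 and 0.65), and leaving out single libraries moved its log2 fold change between -5.26 and -2.94. Its level is uncertain, since the overlapping gene *Gm43738*, on the same strand, covers 26.7% of its exons. Of its 75-base windows, 23.5% also occur in other genes, among them *Gm3571*, *Gm5873*, *Gm7979* and *Gm8163*. *Idi1* and *Fdft1* had 23.6% and 21.8% of their windows in other genes, and the levels of all these genes are uncertain to that extent.

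**Figure D2:**
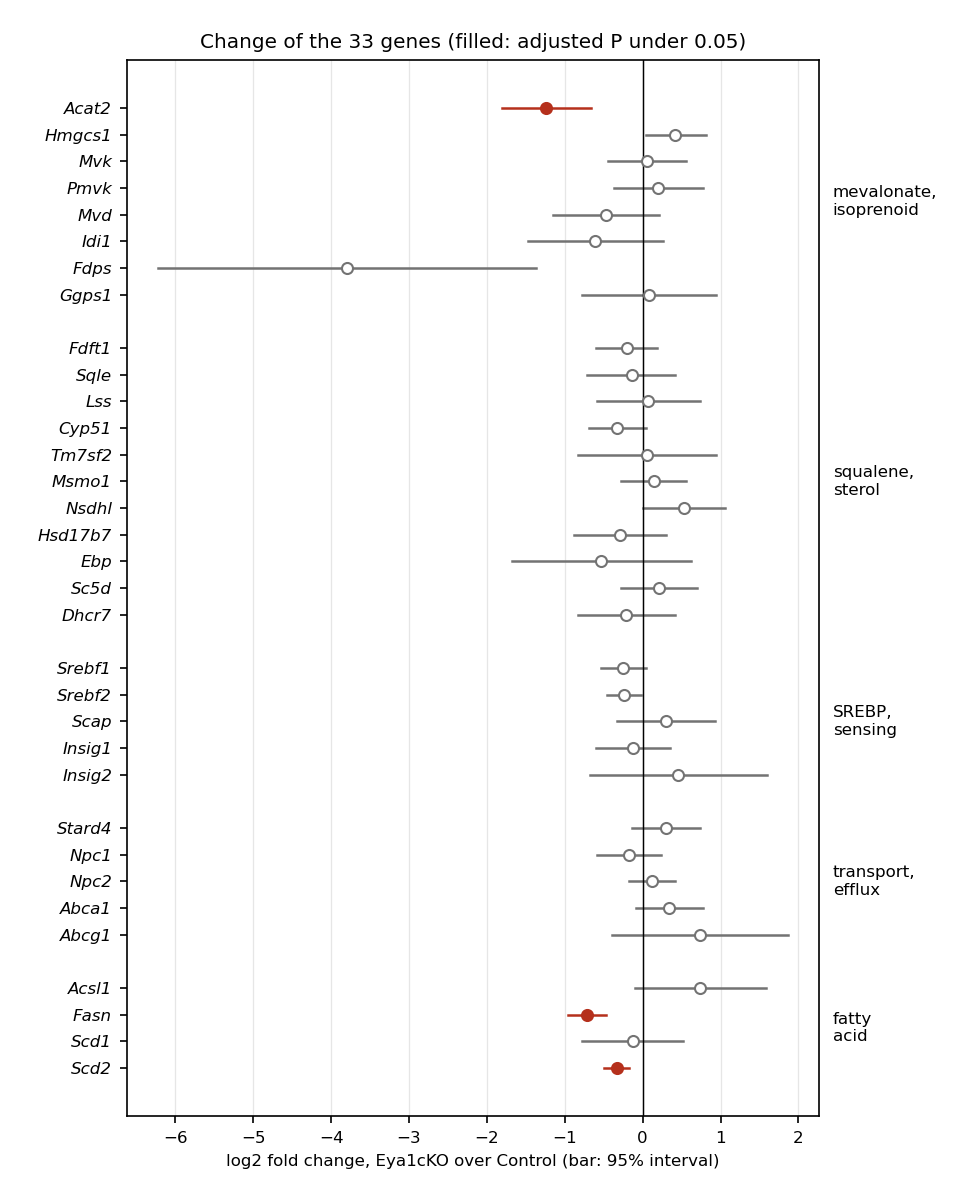
Log2 fold change of each of the 33 genes, *Eya1*cKO over Control, with its 95% interval from edgeR's quasi-likelihood fit over n = 2 libraries per genotype; filled points passed an adjusted *P* of 0.05. The filled points are *Acat2*, *Fasn* and *Scd2*, all below 0, and most open points lie within 1 unit of 0 on either side.

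None of the 11 genes from squalene to cholesterol passed the threshold in edgeR or in DESeq2, and 1 of them, *Nsdhl*, had an unadjusted *P* under 0.05. Their median log2 fold change was -0.14, with a range from -0.53 to 0.53, and their summed level was 462 and 453 CPM in Control and 403 and 464 in *Eya1*cKO. The sums of the genotypes overlapped. *Fdft1*, the squalene synthase, was at 62.9 and 55.5 CPM in Control and 54.6 and 47.4 in *Eya1*cKO. *Sqle*, the squalene epoxidase that is a rate-limiting step, was at 85.8 and 87.5 CPM in Control and 57.4 and 103 in *Eya1*cKO. Its Control libraries were nearly equal, and its *Eya1*cKO libraries lay on either side of them. *Lss*, the lanosterol synthase, had the same arrangement, at 38.0 and 41.5 CPM against 30.4 and 55.7.

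*Cyp51*, the lanosterol 14-alpha-demethylase, was the most abundant enzyme of this segment in Control, also per length. It was at 93.5 and 89.6 CPM in Control and 64.4 and 83.2 in *Eya1*cKO, with a log2 difference of -0.33 (95% interval -0.69 to 0.04, edgeR adjusted *P* = 0.21). *Msmo1*, the C4-methylsterol oxidase, was at 39.0 and 37.7 CPM against 41.5 and 43.1. Its log2 fold change of 0.14 had an interval of -0.28 to 0.56. *Nsdhl*, which acts with *Msmo1* in C4 demethylation, was at 24.3 and 22.3 CPM in Control and 31.4 and 36.4 in *Eya1*cKO. Both *Eya1*cKO libraries were higher, with a log2 fold change of 0.53 (SE 0.22, edgeR adjusted *P* = 0.17). *Hsd17b7*, the ketoreductase of the same complex, was at 28.1 and 28.1 CPM in Control and 26.1 and 19.3 in *Eya1*cKO.

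*Ebp*, the sterol isomerase, was at 10.3 CPM in Control 1, with Control 2 nearly equal, and at 4.47 and 10.3 CPM in *Eya1*cKO 1 and 2. *Eya1*cKO 1 alone was low. *Dhcr7*, the last reductase of the Kandutsch-Russell branch, was at 35.7 and 40.1 CPM against 40.2 and 23.5, and here *Eya1*cKO 2 was the low library. *Sc5d*, the preceding desaturase, was at 28.4 and 27.4 CPM against 32.8 and 31.5, with a log2 fold change of 0.21 (95% interval -0.28 to 0.70). *Tm7sf2*, a sterol C14-reductase, was at 15.8 and 13.6 CPM against 19.3 and 10.2, so its groups overlapped.

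The genes of SREBP activation and sterol sensing numbered 5 and none passed in edgeR or DESeq2, with *Srebf2* the only one at an unadjusted *P* under 0.05. *Srebf2*, which encodes the SREBP that governs cholesterol synthesis, was at 311 and 321 CPM in Control and 248 and 288 in *Eya1*cKO. Both *Eya1*cKO libraries were below both Control libraries, and the log2 fold change was -0.24 (95% interval -0.46 to -0.02, edgeR adjusted *P* = 0.14). *Srebf1*, whose products favour fatty acid synthesis genes, was at 106 and 99.5 CPM against 89.7 and 82.4, a log2 fold change of -0.25 (95% interval -0.54 to 0.04). Counts per gene do not separate the SREBP-1a and SREBP-1c transcripts. Per kilobase of exon, *Srebf2* exceeded *Srebf1* by 2.29 and 2.53-fold in Control and by 2.17 and 2.75-fold in *Eya1*cKO, so the order of the pair was the same in all 4 libraries.

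*Scap*, the SREBP escort, was at 75.4 and 69.2 CPM in Control and 62.9 and 120 in *Eya1*cKO. *Insig1*, an SREBP target whose product retains Scap, was at 55.9 and 47.8 CPM against 41.0 and 55.3. The groups of both genes overlapped, and the log2 fold change of *Insig1* was -0.13 (95% interval -0.60 to 0.35). *Insig2*, the isoform that responds little to SREBP, was at 10.4 and 10.9 CPM in Control and 20.6 and 7.07 in *Eya1*cKO, on opposite sides of Control. Per kilobase of exon *Insig1* exceeded *Insig2* by 6.04 and 4.93-fold in Control, by 2.23-fold in *Eya1*cKO 1 and by 8.78-fold in *Eya1*cKO 2.

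Of the 5 transport and efflux genes none passed in edgeR or DESeq2, and none had an unadjusted *P* under 0.05. Their median log2 fold change was 0.30. *Stard4*, a cytosolic sterol carrier that SREBP-2 induces, was at 52.7 and 53.9 CPM in Control and 56.1 and 77.5 in *Eya1*cKO. *Npc1* and *Npc2*, which hand cholesterol out of the lysosome, had log2 fold changes of -0.18 (95% interval -0.59 to 0.23) and 0.12 (-0.18 to 0.42). *Npc2* was at 79.8 and 84.7 CPM against 93.3 and 84.6, and its interval is among the narrowest of the list. *Abca1*, the liver X receptor target that loads cholesterol onto apolipoprotein A-I, was at 40.3 and 41.7 CPM against 46.5 and 58.7, a log2 fold change of 0.34 (95% interval -0.09 to 0.78). *Abcg1*, which exports sterol to HDL, was at 5.96 and 6.84 CPM against 13.5 and 6.90. Both *Eya1*cKO libraries of *Abca1* and *Abcg1* were above both Control libraries, for *Abcg1* by a small margin in *Eya1*cKO 2.

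The 4 fatty acid genes held the other members that fell. *Fasn*, on chromosome 11 from 120805846 to 120824547, makes palmitate from malonyl-CoA under SREBP-1c. Its Control libraries held 18344 and 20824 reads and its *Eya1*cKO libraries 6697 and 6430, or 525 and 556 CPM against 296 and 367. The groups were far apart, with a log2 fold change of -0.71 (SE 0.10, edgeR adjusted *P* = 0.0096). The call was kept under all 9 alternatives run on all 4 libraries. None of its 75-base windows occur in another gene. *Scd2*, on chromosome 19 from 44293674 to 44306864, introduces the double bond of oleate and is the desaturase of embryonic tissues. Its Control libraries held 28245 and 29273 reads and its *Eya1*cKO libraries 14967 and 10520, or 809 and 782 CPM against 662 and 600. The log2 fold change was -0.33 (SE 0.07, edgeR adjusted *P* = 0.031). It was kept under 7 of the 9 alternatives, and its adjusted *P* lay between 4.4e-04 and 0.058.

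The close relative *Scd1*, the desaturase of adult liver and fat, was at 25.7 and 22.6 CPM in Control and 18.5 and 26.4 in *Eya1*cKO, and its groups overlapped. Per kilobase of exon *Scd2* exceeded *Scd1* by 28.2 and 30.9-fold in Control and by 32.0 and 20.3-fold in *Eya1*cKO. Of the 75-base windows of *Scd2*, 1.78% occur in another *Scd* gene. *Acsl1*, which activates long-chain fatty acids with CoA, was at 24.1 and 24.7 CPM in Control and 26.5 and 58.1 in *Eya1*cKO. At a log2 fold change of 0.74 it missed the threshold (edgeR adjusted *P* = 0.22), and *Eya1*cKO 2 alone stood well above Control.

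**Figure D3:**
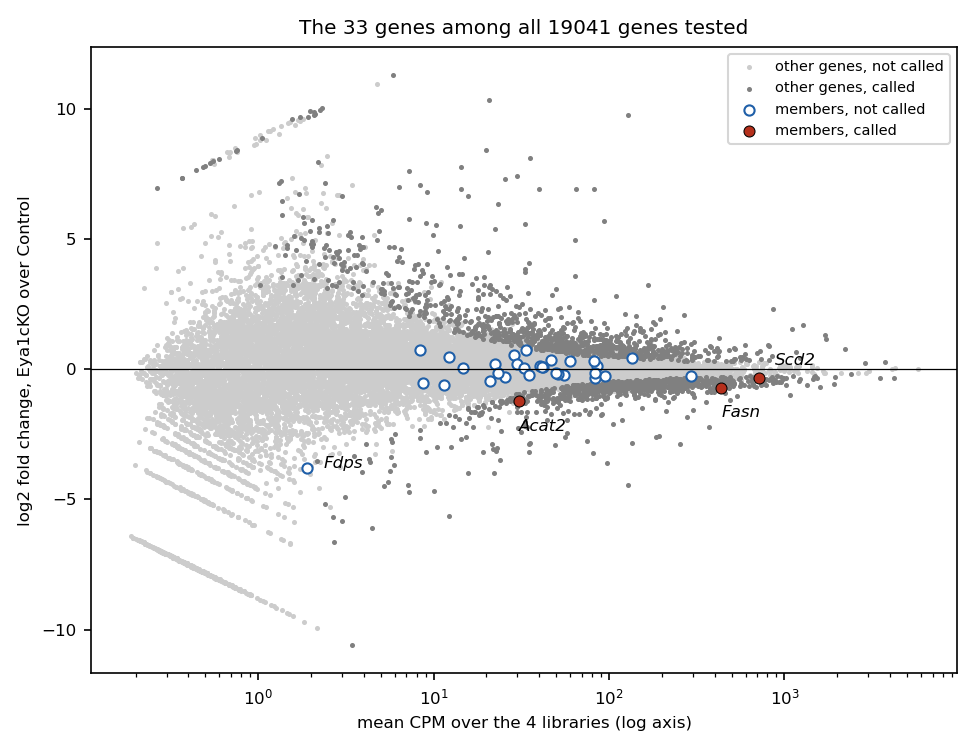
Log2 fold change, *Eya1*cKO over Control, against mean CPM over the 4 libraries (log axis) for all 19041 genes tested; large circles are the 33 members, filled where the adjusted *P* was under 0.05, and dark small points are other genes called. *Fdps* at -3.79 and *Acat2* at -1.24 are the members farthest from 0, and the other 31 lie between -1 and 1.

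Per kilobase of exon, the order of the members in Control was led by *Scd2* with 146 ± 3.50 CPM per kilobase (SD, n = 2), followed by *Fasn* with 49.4 ± 1.99, *Srebf2* with 44.0 ± 0.969, *Hmgcs1* with 25.5 ± 1.89 and *Cyp51* with 20.7 ± 0.624. These levels do not overlap between neighbours. Exon length here is that of all annotated exons of a gene merged, not of a single transcript. The order therefore depends in part on the annotation. *Srebf1*, *Insig1*, *Acat2* and *Sqle* came next, with means from 15.6 to 18.3 CPM per kilobase, and the Control values of *Insig1* spanned those of *Acat2* and reached into those of *Srebf1* and *Sqle*. *Abcg1* and *Fdps* were last, with 0.876 ± 0.0853 and 0.835 ± 0.0319, and did not differ beyond their spread. In *Eya1*cKO *Fasn* was at 30.3 ± 4.53, below *Srebf2* at 37.3 ± 3.99 and *Hmgcs1* at 33.8 ± 8.02, and these 3 overlapped within their SDs.

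For the 30 genes that were not called, the intervals bound the change given the spread between portions of pooled cells. They do not hold the spread between embryos or litters. In 22 of them the 95% interval of the log2 fold change lay between -1 and 1, so a change of 2-fold lay outside it. The other 8 were *Mvd*, *Idi1*, *Fdps*, *Nsdhl*, *Ebp*, *Insig2*, *Abcg1* and *Acsl1*. In 5 genes, *Mvk*, *Msmo1*, *Srebf1*, *Srebf2* and *Npc2*, the interval lay within a 1.5-fold change either way. In 11 members both *Eya1*cKO libraries were below both Control libraries and in 9 both were above, which is 33.3% and 27.3% of members, against 30.0% and 25.3% of all genes tested.

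The *Eya1*cKO libraries differed from each other more than the Control libraries did for 30 of the 33 genes, and for 80.1% of all genes tested with a mean of at least 10 CPM. The median fold between the libraries of a genotype was 1.06 in Control and 1.35 in *Eya1*cKO over the members, against 1.07 and 1.24 over the 10407 genes at that level. The member values include *Fdps*, *Ebp* and *Abcg1*, which lie below that level and differed by 5.15, 2.30 and 1.96-fold in *Eya1*cKO. Among the 30 members at that level, 8 (26.7%) differed by more than 1.5-fold between the *Eya1*cKO libraries and 0 between the Control libraries. The shares of all genes at that level were 25.1% and 1.30%. *Tm7sf2*, *Dhcr7*, *Insig2* and *Abcg1* were higher in *Eya1*cKO 1 by more than 1.5-fold. *Fdps*, *Ggps1*, *Sqle*, *Lss*, *Ebp*, *Scap* and *Acsl1* were higher in *Eya1*cKO 2. Genes of the synthesis pathway were thus on both sides. *Eya1*cKO 2 was also the library with the fewest reads.

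**Figure D4:**
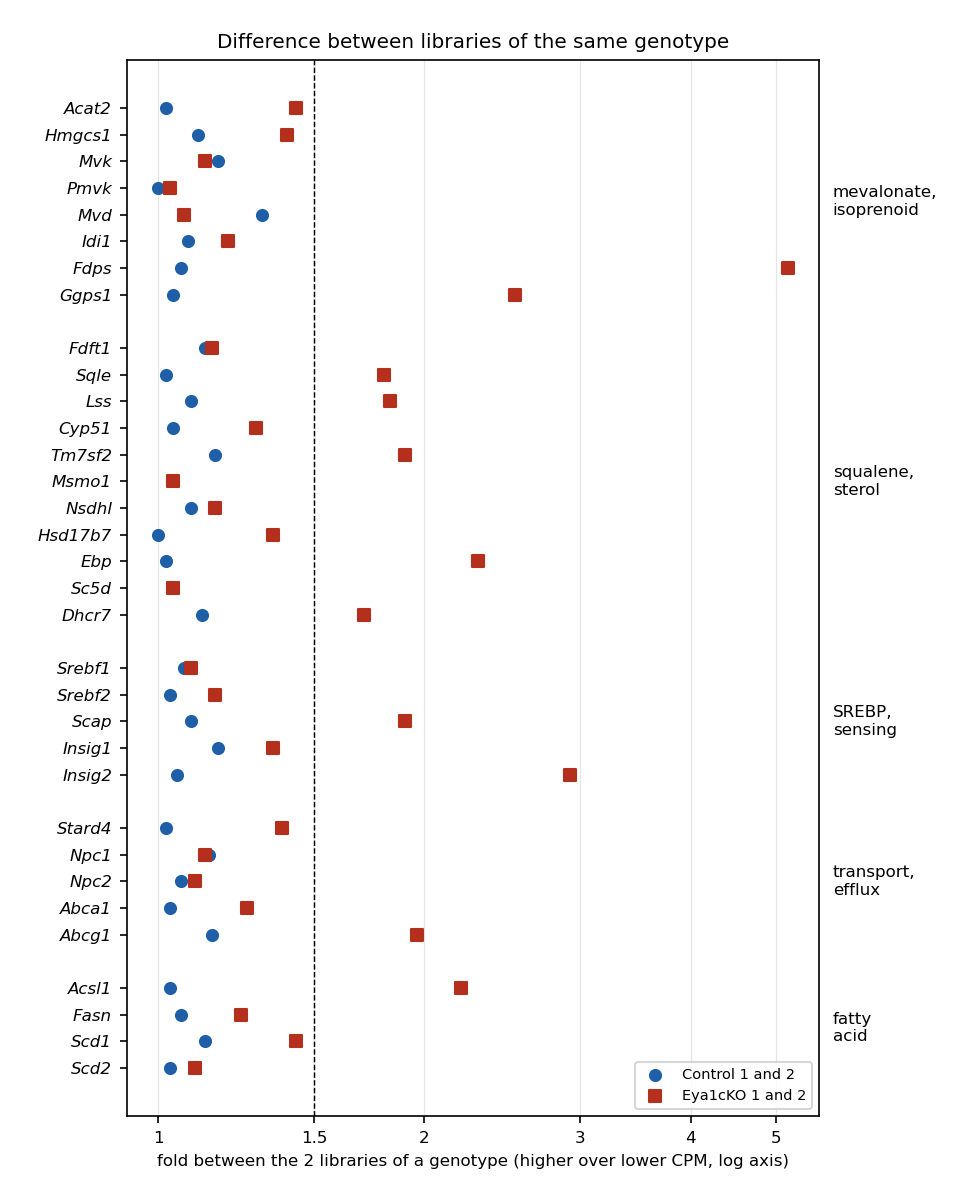
Fold between the libraries of the same genotype for each of the 33 genes (higher over lower CPM, log axis); circles are Control 1 against Control 2, squares *Eya1*cKO 1 against *Eya1*cKO 2, and the dashed line is 1.5-fold. No circle passes the line, while 11 squares do, the farthest being *Fdps* at 5.15-fold.

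Genes next to the pathway were counted in 6 lists of 67 genes, all of which passed the filter. Of these 4 fell and 8 rose. Of all genes tested, 4.41% fell and 5.15% rose. Among genes with a mean of at least 10 CPM, 15.4% were called in either direction. In the list of fatty acid synthesis and activation, 3 of 15 fell and 3 rose. *Acsl3*, an acyl-CoA synthetase of lipid droplets, was at 108 and 112 CPM in Control and 58.4 and 57.9 in *Eya1*cKO (log2 fold change -0.91, edgeR adjusted *P* = 0.0082). *Elovl6*, which elongates palmitate, was at 143 and 154 CPM against 90.6 and 95.7 (-0.68, edgeR adjusted *P* = 0.015). *Acaca*, the acetyl-CoA carboxylase that supplies *Fasn* with malonyl-CoA, was at 88.5 and 82.4 CPM against 51.9 and 40.1 (-0.87, edgeR adjusted *P* = 0.023). It was named after its values were seen, as were *Elovl1* and *Lrp1* below. *Acsl3*, *Elovl6* and *Acaca* were each kept under 8 of 9 alternatives, with adjusted *P* reaching 0.052, 0.065 and 0.077 in edgeR or DESeq2.

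The genes of that list that rose were *Me1*, *Acsl4* and *Elovl1*. *Me1*, the malic enzyme that makes NADPH, went from 7.13 and 6.73 CPM in Control to 55.1 and 40.0 in *Eya1*cKO (log2 fold change 2.80, edgeR adjusted *P* = 0.0033). *Acsl4* and *Elovl1* had log2 fold changes of 0.76 and 0.79, both with an adjusted *P* of 0.049 in edgeR, and each was kept under 4 of 9 alternatives.

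Among 15 genes of sterol transport, esterification and uptake, 3 rose and none fell in edgeR, with 1 lower at an unadjusted *P* under 0.05 and 1 lower by DESeq2. *Lrp8*, a lipoprotein receptor named after its values were seen, was at 40.6 and 39.8 CPM in Control and 5.40 and 22.2 in *Eya1*cKO (log2 fold change -1.65, edgeR adjusted *P* = 0.062, past the threshold in 2 of 9 alternatives). *Scarb1*, the HDL receptor through which steroid-producing cells take up cholesterol esters, was covered by 1640 and 1699 Control reads and by 4891 and 3281 *Eya1*cKO reads, or 47.0 and 45.4 CPM against 216 and 187. Its log2 fold change was 2.13 (SE 0.13, edgeR adjusted *P* = 3.8e-04). *Gramd1b*, a sterol carrier between plasma membrane and endoplasmic reticulum, was at 42.2 and 40.6 CPM against 103 and 148 (1.58, edgeR adjusted *P* = 0.0058). *Lrp1*, a lipoprotein receptor, was at 493 and 498 CPM against 651 and 691 (0.44, edgeR adjusted *P* = 0.0099). The groups of all 3 were apart, and the calls were kept under all 9 alternatives on 4 libraries. The adrenal cortex markers rose in the same libraries by the sums given above, and how much of the *Scarb1* and *Gramd1b* values came from such cells was not tested. The 19 members that are enzymes of cholesterol synthesis summed to 768 and 736 CPM in Control and to 710 and 761 in *Eya1*cKO over the same libraries.

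**Figure D5:**
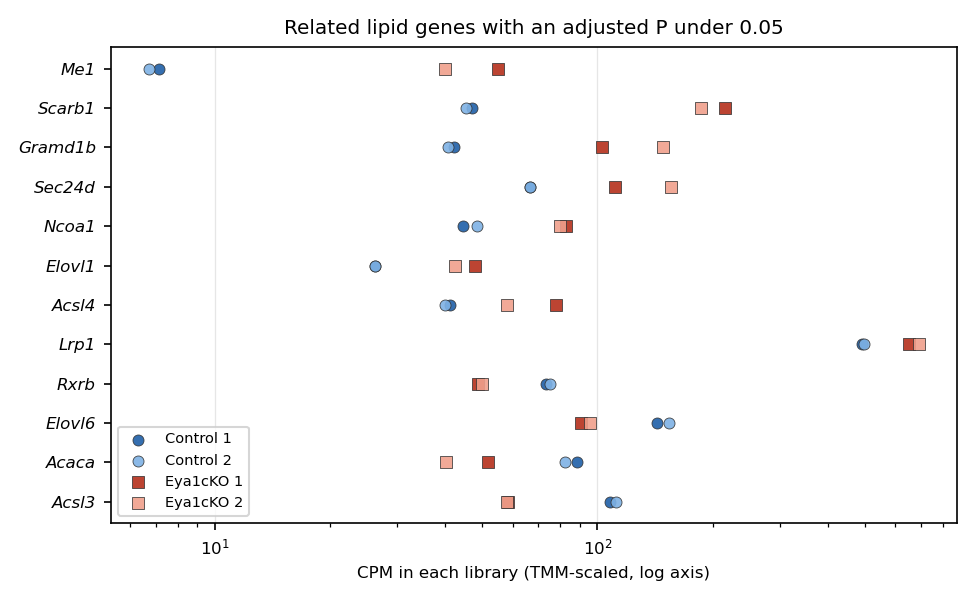
The 12 genes of the neighbouring lists with an adjusted *P* under 0.05, each point 1 library in CPM (log axis), ordered by log2 fold change. *Me1*, *Scarb1* and *Gramd1b* have the *Eya1*cKO squares farthest above the Control circles, and *Acsl3* and *Acaca* farthest below.

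In the remaining lists few genes passed. Of the 12 genes of SREBP processing and reductase turnover, 1 rose and 11 were not called. *Sec24d*, a coat protein of vesicles leaving the endoplasmic reticulum, went from 66.8 and 66.8 CPM to 111 and 156 (log2 fold change 0.98, edgeR adjusted *P* = 0.019), kept under 8 of 9 alternatives. Of 9 genes of the liver X receptor circuit, *Ncoa1*, a nuclear receptor coactivator, rose (0.81, edgeR adjusted *P* = 0.018, kept under 8 of 9 alternatives) and *Rxrb*, a partner of the liver X receptors, fell (-0.59, edgeR adjusted *P* = 0.049), the latter kept under 2 of 9 alternatives. DESeq2 called 1 lower and 2 higher in this list, and as many had an unadjusted *P* under 0.05 in edgeR. *Lpcat3*, a phospholipid-remodelling target of these receptors named after its values were seen, was at 24.7 and 31.1 CPM in Control and 39.9 and 66.4 in *Eya1*cKO (0.89, edgeR adjusted *P* = 0.097, 0.031 to 0.19 over the alternatives). None of the 12 genes that use prenyl chains and none of the 4 genes of oxysterol synthesis passed in edgeR or DESeq2, and none had an unadjusted *P* under 0.05.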

How the data were processed

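RNA-seq reads of 4 libraries were mapped by the authors to mm10 with HISAT2 and counted with HTSeq-count on Ensembl release 90. The deposited values are these raw counts per gene, without normalization, and the strand setting is not given in the sources used here. Libraries were made with a strand-specific kit per the labels. HTSeq summary rows were left out of library sizes; reads on no gene were 12.9% to 22.7% of all reads recorded. A symbol was found for 52403 of 52636 identifiers in GENCODE M21 (GRCm38, the same build), which also gave positions and exon lengths. Exon length was that of all annotated exons of a gene merged, so levels and ratios per kilobase depend in part on the annotation. The test was edgeR 4.0.16 under R 4.3.3: filterByExpr (minimum count 10), TMM, glmQLFit with legacy = FALSE, and glmQLFTest on genotype, with Benjamini-Hochberg adjustment over all genes at 0.05. Standard errors (log2 scale) and 95% intervals were derived from the F statistic. CPM are counts over TMM-scaled library sizes. DESeq2 1.42.0 was an alternative. Shared 75-base windows (the read length) were exact matches on either strand among GENCODE transcripts. The test was checked on simulated counts. Every member is named; of the neighbouring lists, the 2 genes of smallest *P* per direction among those past the threshold, with any other gene marked as named after its values were seen. The members and lists were chosen with earlier results of these data known. Enzymes of the pathway outside the 33 members were not analysed here.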

Additional observations from a re-analysis of the deposited data

How the results depend on the processing

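With 2 libraries per genotype, calls depend on how the spread is estimated. The counts of genes lower and higher were 839 and 981; they were 507 and 548 without the low-count filter, 515 and 581 with the legacy method, 548 and 585 with all libraries thinned to 17457452 reads, and 1191 and 1498 with DESeq2's Wald test. With each library left out in turn they ran from 7 to 3482 lower and from 15 to 4443 higher; without a Control library the spread comes from the *Eya1*cKO pair alone, and without an *Eya1*cKO library from the Control pair alone. Of the members, 3 were lower; with the legacy method it was 1, and with a library left out 0 to 9 were lower and 0 to 7 higher: 6 and 7 without *Eya1*cKO 1, 9 and 3 without *Eya1*cKO 2, and 0 and 0 without either Control library. The replicate numbers of the titles were not used as pairs in the main fit. The correlation of same-numbered deviations was 0.00905, a value that cannot tell whether same-numbered libraries shared a batch. With the replicate block 263 genes were lower, 358 higher, and 1 member lower, *Fasn*. *Tm7sf2* turned from 0.06 to -0.01 after thinning. *Mvk*, *Ggps1*, *Sqle*, *Lss*, *Tm7sf2*, *Ebp*, *Dhcr7*, *Scap*, *Insig1*, *Insig2* and *Scd1*, none of them called, changed sign when 1 library was left out, over ranges of -0.08 to 0.15, -0.69 to 0.65, -0.61 to 0.24, -0.40 to 0.47, -0.54 to 0.38, -1.20 to 0.01, -0.70 to 0.07, -0.22 to 0.72, -0.35 to 0.08, -0.60 to 0.94 and -0.40 to 0.12. The median of all genes moved from 0.02 to -0.21 without the filter. The members' median ran from -0.21 to 0.01 with 1 library left out. The cause of these changes was not tested otherwise.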
